A study of Mus musculus with 6 samples.

Results

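The cardiac myosin chain genes form a set of 7, namely 3 heavy chain genes (Myh6, Myh7 and Myh7b) and 4 light chain genes (Myl2, Myl3, Myl4 and Myl7), found by gene symbol among the 30619 rows of a raw count table from mouse hearts at E12.5 of embryonic development. All 7 were present, and all 7 were among the 17557 genes with enough counts to be tested. The table held 3 libraries of hearts labelled as a Trim28 conditional knockout (CKO) by title and as a knockdown by genotype label, and 3 libraries of wild-type control hearts. Both groups were described as mixed embryonic cardiac cells, while strain, Cre driver, deleted exons and hearts per library were not given in the sources used here. TRIM28 is a co-repressor that zinc finger proteins bring to chromatin, and the series concerns its part in the formation of the ventricular wall.

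Myosin is the motor of the thick filament. Each molecule has a pair of heavy chains, which hydrolyse ATP and pull on actin, and each heavy chain binds an essential and a regulatory light chain at its neck. The mouse heart uses an alpha heavy chain (Myh6) and a slower beta heavy chain (Myh7), and its atria and ventricles use different light chains: MYL7 (regulatory) and MYL4 (essential) mark the atria, MYL2 (regulatory) and MYL3 (essential) the ventricles. In the embryo the division is incomplete, since early ventricles also make the atrial light chains. In the mouse, beta heavy chain dominates the fetal ventricle and alpha heavy chain replaces it after birth. In a library of mixed cardiac cells, a different share of atrial tissue, fewer cells of a type and less RNA per cell cannot be told apart.

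The libraries held 34400841 to 39763233 counts. Trim28 itself was measured at 172, 314 and 165 CPM (gene counts scaled to library size) in CKO libraries 1, 2 and 3, against 305, 391 and 443 CPM in control libraries 1, 2 and 3. The library labelled CKO 2 lay within the control range, and Trim28 was not called (log2 fold change -0.81, SE 0.34, adjusted p = 0.339 by edgeR's quasi-likelihood test), so the group labels were followed as given. A ribosomal RNA row (CT010467.1) took 0.563% to 0.79% of the counts in CKO libraries and 0.127% to 0.522% in control libraries. The groups did not overlap in this share, so a fit that adds it as a covariate cannot fully part it from the group. That limit applies to calls kept, gained or lost with this covariate. Xist had 0.101 to 420.3 CPM in CKO and 469 to 943 CPM in control libraries, without overlap. The Y-linked gene Ddx3y had 38.1 to 75.5 CPM in CKO and 0 to 42.8 CPM in control libraries, with overlap. CKO library 1 and control libraries 1 and 3 held counts of both genes. CKO libraries 2 and 3 had 7 and 4 Xist counts, and control library 2 had 0 Ddx3y counts. A fit that adds Y-linked expression as a covariate therefore cannot fully part sex from the group. Heart muscle markers were abundant in each library (Actc1 at 10008 to 11597 CPM in CKO and 9758 to 10287 CPM in control libraries).

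The 7 myosin genes together took 1.69% to 1.70% of the counts in CKO libraries and 1.58% to 1.70% in control libraries. Of the 7, 3 rose in CKO hearts and none fell. The 3 were the alpha heavy chain gene Myh6 and both atrial light chain genes, Myl7 and Myl4. Over all tested genes, 532 were higher (3.03%) and 188 lower (1.07%), so that 4.1% were called in either direction. A call is an adjusted p under 0.05 in edgeR's quasi-likelihood test, with Benjamini-Hochberg adjustment over all 17557 genes. At an unadjusted p under 0.05, 4 of the 7 passed, namely the 3 that rose and Myh7. Of all 17557 tested genes, 3126 passed at that unadjusted threshold. CKO and control values did not overlap for the same 3 genes, whereas 22.1% of all tested genes were separated in this way. The median log2 fold change (CKO over control) was 0.046 over the 7 genes and 0.0035 over all tested genes.

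**Figure D1:**
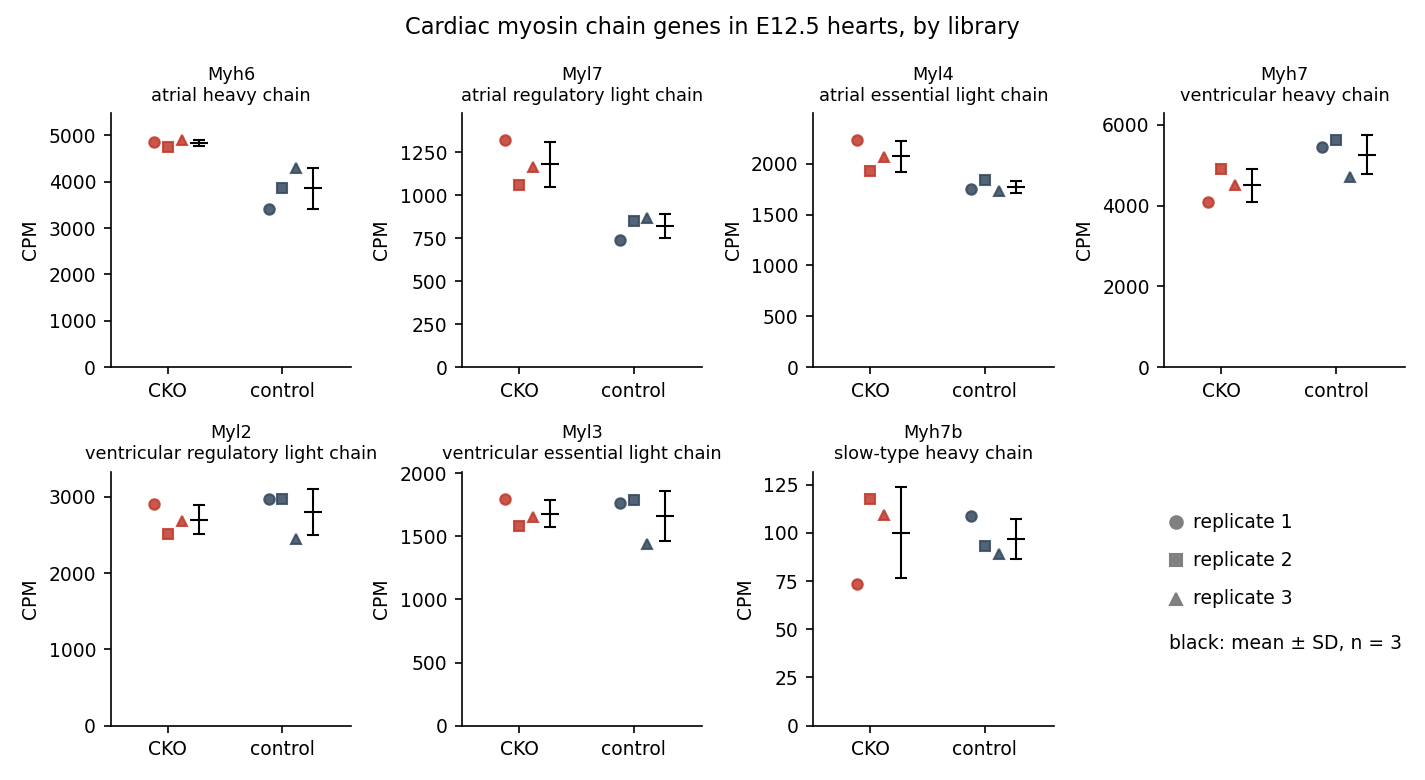
CPM of the 7 cardiac myosin chain genes (vertical axis, from 0) in CKO libraries (red, left) and control libraries (dark blue, right), 1 symbol per replicate, with the mean and SD in black. Myh6, Myl7 and Myl4 do not overlap between the groups, while Myh7, Myl2, Myl3 and Myh7b do.

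Counts were set on a per-length scale to compare genes with each other, as CPM per kilobase of the principal GENCODE transcript. In CKO hearts, Myl2 was highest at 3040 ± 217 CPM per kilobase, followed by Myl4 (2199 ± 161), Myl7 (2001 ± 223), Myl3 (1791 ± 116), Myh6 (791 ± 11.5), Myh7 (722 ± 65.85) and Myh7b (16.2 ± 3.82, SD, n = 3 each). In control hearts, Myl2 was again highest at 3148 ± 339 CPM per kilobase, followed by Myl4 (1879 ± 58.9), Myl3 (1773 ± 208), Myl7 (1389.7 ± 117), Myh7 (844 ± 77.7), Myh6 (630.1 ± 71.3) and Myh7b (15.7 ± 1.71, SD, n = 3 each). Both orders put Myl2 first and Myh7b far below the rest. In CKO libraries the neighbours Myl4 and Myl7, Myl7 and Myl3, and Myh6 and Myh7 overlapped across libraries. Within each CKO library, however, Myl4 lay above Myl7 and Myl7 above Myl3, while Myh6 lay above Myh7 in CKO libraries 1 and 3 and below it in CKO library 2. In control libraries Myh7 lay above Myh6 without overlap, Myl3 lay above Myl7 without overlap, and Myl4 and Myl3 overlapped, with Myl4 below Myl3 in control library 1 and above it in the other controls. The place of both light and heavy chain genes in this order rests on the transcript chosen. By the union of all annotated exons (4637 bases in place of 943 for Myl4), Myl7 ranked 1 in CKO and 2 in control hearts and Myl4 ranked 6 in both. On that scale Myh6 lay above Myh7 in CKO library 2 (707 against 570) and in control library 3 (637 against 546). The heavy chain genes Myh6 and Myh7 then overlapped across control libraries.

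The heavy chain genes come first. Myh7 (ENSMUSG00000053093.16, chromosome 14, 54970684 to 54994626, minus strand, mm10) and Myh6 (ENSMUSG00000040752.16, chromosome 14, 54941921 to 54966927, minus strand) lie head to tail, 3756 bases apart. Hairpins of heart-enriched microRNAs sit in introns of the heavy chain genes, on the same strand: Mir208a in Myh6, Mir208b in Myh7 and Mir499 in Myh7b. Their main mature forms, in the RefSeq sequences of build GRCm38.p6, are shown because they tie the 3 heavy chain genes to each other, with the seed (bases 2 to 8) in capitals. They lie at chr14:54949072-54949093 (minus strand), chr14:54975710-54975731 (minus strand) and chr2:155622893-155622913 (plus strand), in the order shown.
mmu-miR-208a-3p: aUAAGACGagcaaaaagcuugu
mmu-miR-208b-3p: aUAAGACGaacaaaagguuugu
mmu-miR-499-5p: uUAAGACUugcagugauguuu
The 208a and 208b forms share the seed UAAGACG and differ at 3 of 22 positions outside it (G10A, A16G and C18U, counted from the 5′ end, 208a first). The mature form mmu-miR-499-5p differs from both at the last base of the seed (G8U). Poly(A) libraries do not measure mature microRNAs, and the 3 hairpin rows hold only reads that cross the hairpin. They had 5, 20 and 10 counts (Mir208a), 6, 35 and 25 counts (Mir208b) and 2, 4 and 2 counts (Mir499) in CKO libraries 1, 2 and 3, against 8, 3 and 14, 20, 15 and 6, and 1, 0 and 0 counts in control libraries 1, 2 and 3. Mir208b was tested and not called (log2 fold change 0.75, SE 0.62, adjusted p = 0.587 by edgeR's quasi-likelihood test), and the other hairpin rows were below the filter on low counts.

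**Figure D2:**
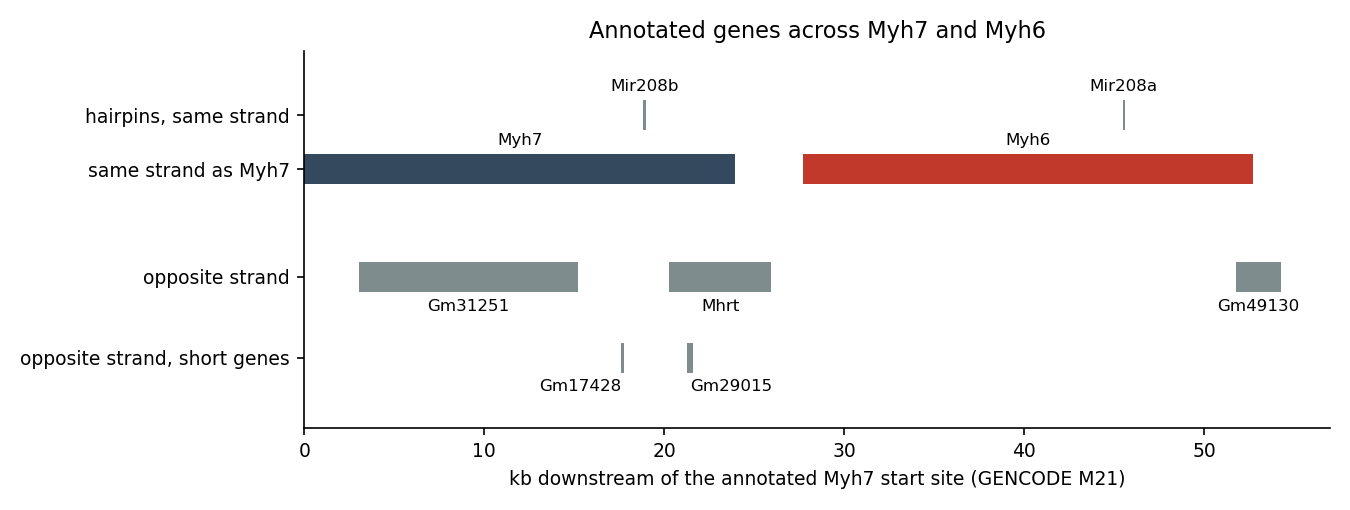
Genes annotated across Myh7 and Myh6, drawn to scale in kilobases downstream of the annotated Myh7 start (horizontal axis), with genes on the same strand as Myh7 above and genes on the opposite strand below. Mir208b and Mir208a lie inside their hosts, Mhrt reaches from Myh7 into the 3756 bases before Myh6, and Gm49130 overlaps the 3′ end of Myh6.

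Myh6, which encodes the alpha heavy chain, was measured at 4857, 4756 and 4892 CPM in CKO libraries 1, 2 and 3, against 3415, 3854 and 4286 CPM in control libraries 1, 2 and 3. The CKO libraries lay within a narrow band above every control, and control library 3 came closest to them. The means were 4835 ± 70.3 CPM in CKO and 3852 ± 436 CPM in control hearts (SD, n = 3 each), and the log2 fold change was 0.33 (SE 0.07, adjusted p = 0.0103 by edgeR's quasi-likelihood test). The call was lost without CKO library 1 (log2 fold change 0.32, adjusted p = 0.131), CKO library 3 (0.32, adjusted p = 0.0633), control library 1 (0.24, adjusted p = 0.0533) or control library 2 (0.33, adjusted p = 0.0585), and with Y-linked expression as a covariate (0.32, adjusted p = 0.0909). With the share of the ribosomal RNA row as a covariate the log2 fold change was 0.55 (adjusted p = 0.00612). Gm49130, a gene annotated antisense to Myh6 that shares 114 exon bases with its 3′ end, also rose, with 3.75, 5.96 and 5.33 CPM in CKO and 2.66, 2.18 and 2.78 CPM in control libraries (log2 fold change 0.98, SE 0.22, adjusted p = 0.0159 by edgeR). Its call held for 2 of the 6 omissions of a library. The sources do not say whether the counting used strand, and without strand its reads in the 114 shared bases, of its 706 exon bases, cannot be told from those of Myh6. The ribosomal RNA covariate ended its call (adjusted p = 0.322 by edgeR).

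Myh7, the beta heavy chain gene, was measured at 4088, 4908 and 4499 CPM in CKO libraries 1, 2 and 3, against 5449.8, 5618 and 4708 CPM in control libraries 1, 2 and 3. CKO libraries 1 and 3 lay below every control, while CKO library 2 lay above control library 3. The means were 4498 ± 410.2 CPM in CKO and 5258 ± 484 CPM in control hearts (SD, n = 3 each), and the log2 fold change of -0.23 (SE 0.08) was not called (adjusted p = 0.138 by edgeR's quasi-likelihood test). The gene was called without CKO library 2 (log2 fold change -0.29, adjusted p = 0.0212), without control library 3 (-0.30, adjusted p = 0.0341) and by DESeq2 with all 6 libraries (-0.23, adjusted p = 0.0285). Mhrt, a long non-coding RNA antisense to Myh7, had 2.54, 5.35 and 3.71 CPM in CKO and 3.24, 3.38 and 2.99 CPM in control libraries, with CKO library 1 lowest and CKO library 2 highest of all 6 (adjusted p = 0.647). Myh6 and Myh7 are similar in sequence, and the treatment of reads that match both is unstated, so their split between the genes is uncertain.

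Myh7b (ENSMUSG00000074652.3, chromosome 2, 155611212 to 155634307, plus strand), an ancient heavy chain gene of slow type, was the lowest of the 7. It had 73.4, 118 and 109 CPM in CKO libraries and 109, 93.0 and 88.8 CPM in control libraries. CKO library 1 was the lowest of all 6 and CKO library 2 the highest, and the groups overlapped (log2 fold change 0.046, SE 0.215, adjusted p = 0.953 by edgeR). Its SE was the largest of the 7.

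The ventricular light chain genes did not pass the test. Myl2 (chromosome 5, 122100951 to 122113472) was measured at 2903, 2518 and 2686 CPM in CKO and 2975, 2969.8 and 2451 CPM in control libraries 1, 2 and 3. Control library 3 was the lowest of all 6, and the CKO values lay between it and the other controls (log2 fold change -0.05, SE 0.08, adjusted p = 0.808 by edgeR). With the ribosomal RNA covariate its log2 fold change was -0.24 (adjusted p = 0.469). Myl3 (chromosome 9, 110741861 to 110769798) was measured at 1797, 1583 and 1655 CPM in CKO and 1762, 1786 and 1437 CPM in control libraries. Here too control library 3 was lowest and the groups overlapped (log2 fold change 0.01, SE 0.08, adjusted p = 0.961 by edgeR).

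The atrial light chain genes both rose. Myl7 (ENSMUSG00000020469.8, chromosome 11, 5896637 to 5898782, minus strand), the atrial regulatory light chain gene, was measured at 1319.9, 1059 and 1162 CPM in CKO libraries 1, 2 and 3, against 741, 852 and 867 CPM in control libraries 1, 2 and 3. Every CKO library exceeded every control, with CKO library 2 nearest to them. The log2 fold change of 0.53 (SE 0.08, adjusted p = 0.00519 by edgeR) was the largest among the 7. Myl7 stayed called whichever library was omitted (highest adjusted p 0.022) and with either covariate (adjusted p = 0.0474 with the ribosomal RNA share and 0.0235 with Y-linked expression). Myl4 (ENSMUSG00000061086.12, chromosome 11, 104550663 to 104595753, plus strand), the atrial essential light chain gene, was measured at 2229.8, 1927 and 2064 CPM in CKO and 1748, 1835 and 1732 CPM in control libraries. The groups did not overlap, but the gap between CKO library 2 and control library 2 was small. The log2 fold change was 0.23 (SE 0.06, adjusted p = 0.0233 by edgeR). Its call was lost without CKO library 1 (0.16, adjusted p = 0.0667), CKO library 3 (0.23, adjusted p = 0.109), control library 1 (0.21, adjusted p = 0.123), control library 2 (0.25, adjusted p = 0.0504) or control library 3 (0.20, adjusted p = 0.134), and with the ribosomal RNA covariate (0.21, adjusted p = 0.543).

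**Figure D3:**
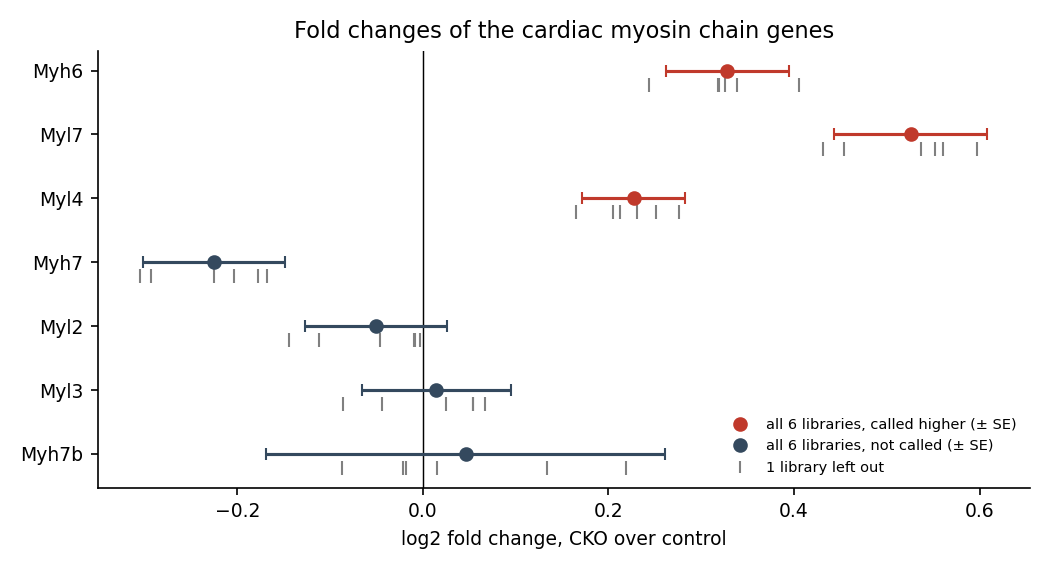
Log2 fold change, CKO over control (horizontal axis), of the 7 genes with all 6 libraries (points, with SE) and with 1 library left out (ticks). The ticks of Myh6, Myl7 and Myl4 all lie above 0 and those of Myh7 and Myl2 all below 0, while those of Myl3 and Myh7b fall on both sides.

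Promoter windows of the alpha and beta heavy chain genes and of 1 atrial and 1 ventricular light chain gene are shown so that a gene that rose can be set beside one that was not called. Each is the 250 bases before the RefSeq start (GRCm38.p6), 5′ to 3′ on the gene's strand. Of the 2 RefSeq starts of Myh7 the one downstream was used. Capitals mark M-CAT motifs (CATTCC, bound by TEAD factors) and CArG boxes (bound by serum response factor).
Myh6, chr14:54966608-54966857, minus strand: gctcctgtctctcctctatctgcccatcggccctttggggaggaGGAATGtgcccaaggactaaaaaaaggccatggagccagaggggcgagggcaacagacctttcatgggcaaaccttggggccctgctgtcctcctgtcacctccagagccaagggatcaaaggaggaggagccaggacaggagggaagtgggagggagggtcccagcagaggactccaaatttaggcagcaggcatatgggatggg
Myl7, chr11:5898783-5899032, minus strand: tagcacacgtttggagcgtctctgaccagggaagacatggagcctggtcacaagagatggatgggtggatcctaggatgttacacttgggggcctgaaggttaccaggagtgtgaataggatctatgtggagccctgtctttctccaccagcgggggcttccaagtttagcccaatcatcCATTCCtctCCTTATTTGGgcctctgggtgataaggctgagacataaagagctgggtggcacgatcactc
Myh7, chr14:54994550-54994799, minus strand: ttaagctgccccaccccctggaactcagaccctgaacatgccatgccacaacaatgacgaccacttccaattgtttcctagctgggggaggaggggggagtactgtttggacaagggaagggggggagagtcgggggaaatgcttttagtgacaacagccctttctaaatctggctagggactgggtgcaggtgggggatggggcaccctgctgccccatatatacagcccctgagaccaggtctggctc
Myl3, chr9:110763428-110763677, plus strand: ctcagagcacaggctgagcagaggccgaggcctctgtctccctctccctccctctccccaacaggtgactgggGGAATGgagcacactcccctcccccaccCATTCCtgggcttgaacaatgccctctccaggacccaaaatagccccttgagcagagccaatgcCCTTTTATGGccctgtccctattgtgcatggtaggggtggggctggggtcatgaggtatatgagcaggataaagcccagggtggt
On either strand, the exact M-CAT motif CATTCC stood in the windows of Myh6, Myl7 and Myl3. It stood in 12.6% of 32851 promoter windows of this length. A CArG box stood in the windows of Myl7 and Myl3 and in 1.47% of all windows. Variant forms of M-CAT were not searched, so a window without a match, such as that of Myh7, may still hold one. The CArG box of Myl7 began 61 and that of Myl3 85 bases before the start. In the Myl7 window an M-CAT motif stood 3 bases upstream of the CArG box. These matches did not sort the genes that rose from those that were not called. The RefSeq windows of Myl2 and Myl4 lay 7794 to 26322 bases from the start of the principal GENCODE transcript and were not used, and that of Myh7b, which holds neither motif, is not printed.

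The ratio of an atrial to a ventricular isoform within 1 library does not depend on how libraries are scaled. In all, 3 such ratios were compared, and each was higher in every CKO library than in every control library. The log2 ratio of Myh6 to Myh7 counts was 0.25, -0.045 and 0.12 in CKO libraries 1, 2 and 3, against -0.67, -0.54 and -0.14 in control libraries 1, 2 and 3. Alpha counts thus exceeded beta counts in CKO libraries 1 and 3, and beta counts exceeded alpha counts in CKO library 2 and in all 3 controls. Myh6 made up 54.3%, 49.2% and 52.1% of the counts of this pair in CKO libraries and 38.5%, 40.7% and 47.7% in control libraries. Counting error was small beside the spread between libraries: the 95% Wilson interval of the share in CKO library 1 ran from 54.1% to 54.5%.

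The log2 ratio of Myl7 to Myl2 was -1.14, -1.25 and -1.21 in CKO libraries, against -2.01, -1.80 and -1.50 in control libraries. The CKO libraries lay close together (SD 0.06) and the controls were spread more widely (SD 0.25). Myl7 made up 30.4% ± 0.84 of the counts of this pair in CKO and 22.8% ± 3.1 in control hearts (SD, n = 3 each). The log2 ratio of Myl4 to Myl3 was 0.31, 0.28 and 0.32 in CKO libraries, against -0.012, 0.039 and 0.27 in control libraries. Control library 3 lay next to the CKO libraries here, as it did for the other ratios.

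The CKO minus control difference of the mean log2 ratio was 0.56 for Myh6 to Myh7 (a ratio 1.47-fold higher), 0.57 for Myl7 to Myl2 (1.49-fold) and 0.21 for Myl4 to Myl3 (1.15-fold). An exact two-sided permutation test over the 20 ways to part 6 libraries gave p = 0.1 for each, also after adjustment over the 3 ratios, which is the smallest p that 3 against 3 libraries allow, so none of the differences could pass the threshold. Without control library 1 they were 0.45, 0.45 and 0.15, and without control library 3 0.72, 0.71 and 0.29. The ratio of the ventricular light chain genes to each other varied little, yet the groups did not overlap. The log2 ratio of Myl2 to Myl3 was 0.69, 0.67 and 0.70 in CKO libraries, against 0.76, 0.73 and 0.77 in control libraries. The log2 ratio of Myl7 to Myl4 was -0.76, -0.86 and -0.83 in CKO libraries, against -1.24, -1.11 and -0.998 in control libraries, so the atrial light chain genes were in a different proportion in each group without overlap. For Myl2 to Myl3 and Myl7 to Myl4 the permutation test also gave p = 0.1, the smallest possible.

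**Figure D4:**
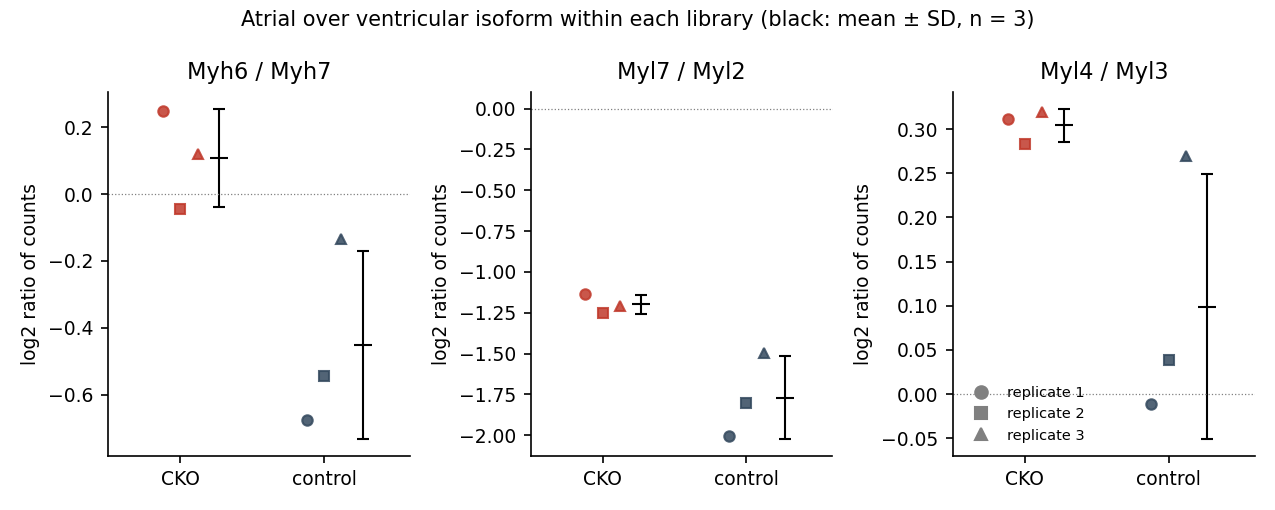
Log2 ratio of the counts of an atrial to a ventricular myosin gene (vertical axis) within each CKO library (red, left) and control library (dark blue, right), with the mean and SD in black. In all 3 panels each CKO library lies above each control, and control replicate 3 lies nearest to the CKO libraries.

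Set against Actc1, the cardiac actin gene, the atrial light chain genes showed no overlap between the groups, with CKO above control. The log2 ratio of Myl7 to Actc1 was -3.14, -3.24 and -3.20 in CKO and -3.77, -3.59 and -3.49 in control libraries, and that of Myl4 to Actc1 was -2.38, -2.38 and -2.37 in CKO and -2.53, -2.49 and -2.49 in control libraries. The ratios of Myh6, Myh7, Myl2 and Myl3 to Actc1 overlapped between the groups. For Myl7 to Actc1 and Myl4 to Actc1 the exact permutation test gave p = 0.1, the smallest possible, so neither could pass.

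Across the 6 libraries, the log2 CPM of Myl7 correlated with that of Myl4 (Pearson's r = 0.95) and Myh6 (0.92) and negatively with that of Myh7 (-0.87), and Myl2 correlated with Myl3 (0.95). These values describe 6 libraries in 2 groups and share the group difference and the library. Among 6397 other named genes whose log2 CPM averaged 5 or more, the profile of Myl7 was most like those of Slc16a12 (r = 0.993), Qpct (0.991) and Xbp1 (0.99), and that of Myh7 most like those of Zcchc3 (0.995), Casd1 (0.993) and Ccdc85c (0.992). These were picked as the highest of 6397 values over 6 libraries. How high r would run there without any relation was not tested.

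Genes that work with myosin were described by lists. Over all tested genes 3.03% were called higher and 1.07% lower, and these shares stand beside each list below, cell type markers included. Of 14 thick filament partners, 4 rose and 1 fell, with a median log2 fold change of 0.17. Those that rose included Trim54 (1.15, SE 0.17, adjusted p = 0.000895), which encodes a muscle ring finger protein, Myom2 (0.92, SE 0.17, adjusted p = 0.00533), an M-band protein gene, and Trim63 (0.26, SE 0.06, adjusted p = 0.0128), which encodes a ubiquitin ligase of the sarcomere, each by edgeR. Trim54 had 18.0, 11.1 and 17.9 CPM in CKO libraries, against 7.13, 6.78 and 7.37 CPM in control libraries. Mybpc1, the slow skeletal myosin binding protein gene, fell (-0.91, SE 0.18, adjusted p = 0.00488 by edgeR). Over the 6 omissions of a library, Trim54 and Myom2 kept the call in 6, Mybpc1 in 5 and Trim63 in 3. With the ribosomal RNA covariate Myom2 was called (adjusted p = 0.0335) and Trim54 (adjusted p = 0.139), Trim63 (0.304) and Mybpc1 (0.471) were not. The cardiac myosin binding protein gene Mybpc3, singled out for its role, was not called (0.16, SE 0.06, adjusted p = 0.135).

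Of 9 other sarcomeric myosin genes, 5 passed the filter on low counts and none was called by edgeR. At an unadjusted p under 0.05 there was 1, and DESeq2 and limma-voom each called 1. Over all 17557 tested genes, 3126 passed at that unadjusted threshold, DESeq2 called 1068 and limma-voom 677. The fast skeletal light chain gene Myl1, which is also made in the embryonic heart, had 227, 178 and 206 CPM in CKO and 107, 129 and 148 CPM in control libraries. The groups did not overlap, and its log2 fold change was 0.67 (SE 0.15, adjusted p = 0.0829 by edgeR). With the ribosomal RNA covariate Myl1 passed (0.97, adjusted p = 0.0141 by edgeR), as it did for 2 of the 6 omissions of a library. The heavy chain genes of skeletal muscle were at or under 2.62 CPM in every library, and Myh2 had no count in 5 of the 6. Of 8 smooth muscle and non-muscle myosin genes, the smooth muscle heavy chain gene Myh11 rose (1.61, SE 0.24, adjusted p = 0.00313), as did Myl6 (0.25, SE 0.06, adjusted p = 0.0384 by edgeR), which encodes a light chain found in most cells. Myh11 kept its call in 6 and Myl6 in 1 of the 6 omissions of a library, and with the ribosomal RNA covariate neither passed (adjusted p = 0.299 for Myh11 and 0.71 for Myl6). Myl9, a smooth muscle regulatory light chain gene, was at 0.54 (SE 0.13, adjusted p = 0.104).

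None of the 10 genes of light chain phosphorylation, 6 of myosin folding and assembly and 20 regulators of myosin isoform genes was called by edgeR. At an unadjusted p under 0.05 there were 2, 1 and 6 in the order of these lists, against 3126 of all 17557 tested genes. DESeq2 called none of the phosphorylation and assembly genes and 3 of the regulators, and limma-voom none of the 3 lists' genes. Mylk3, the cardiac light chain kinase gene, had a log2 fold change of -0.14 (adjusted p = 0.187), Smyd1, which encodes a muscle methyltransferase that takes part in myosin assembly, 0.17 (adjusted p = 0.203), and Hsp90ab1, a chaperone gene, -0.08 (adjusted p = 0.436). Among the regulators, the smallest adjusted p belonged to Srf (0.18, adjusted p = 0.0659), which encodes serum response factor, Hey2 (-0.27, adjusted p = 0.0659), a ventricular repressor of atrial genes, and Tbx5 (0.23, adjusted p = 0.0689), a T-box factor of the atria and left ventricle.

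Of 9 genes of the thin filament and Z-disc, the tropomyosin gene Tpm1 rose (0.25, SE 0.06, adjusted p = 0.0181 by edgeR, kept in 1 of the 6 omissions of a library and lost with the ribosomal RNA covariate, adjusted p = 0.517) and none fell, and the median was 0.14. Their summed level was 20840 to 23820 CPM in CKO and 20100 to 21330 CPM in control libraries, so the groups overlapped. Of 9 atrial markers outside the myosins, 6 had a positive log2 fold change, and the values ran from -0.30 to 0.95 (median 0.10). By the test 4 rose and none fell. They were the potassium channel gene Kcna5 (0.84, SE 0.11), the calcium pump regulator gene Sln (0.95, SE 0.16), Dkk3 (0.27, SE 0.06) and the natriuretic peptide gene Nppa (0.38, SE 0.09). Kcna5 and Sln kept the call in 6, Dkk3 in 4 and Nppa in 2 of the 6 omissions, and with the ribosomal RNA covariate Kcna5 alone of the 4 was called (adjusted p = 0.0153 by edgeR). The summed level of the atrial markers was 995 to 1136 CPM in CKO and 850.4 to 915 CPM in control libraries. Nppa was the largest part of it, at 565 to 678 CPM in CKO and 420 to 525 CPM in control libraries. Of 8 ventricular markers, the calcium pump inhibitor gene Pln (-0.51, SE 0.09) and Mpped2 (-0.33, SE 0.07) fell and none rose (median -0.25), with summed levels of 1474 to 1575 CPM in CKO and 1564 to 1805 CPM in control libraries. Pln and Mpped2 each kept the call in 3 of the 6 omissions of a library, and with the ribosomal RNA covariate neither passed (adjusted p = 0.133 for Pln and 0.383 for Mpped2).

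**Figure D5:**
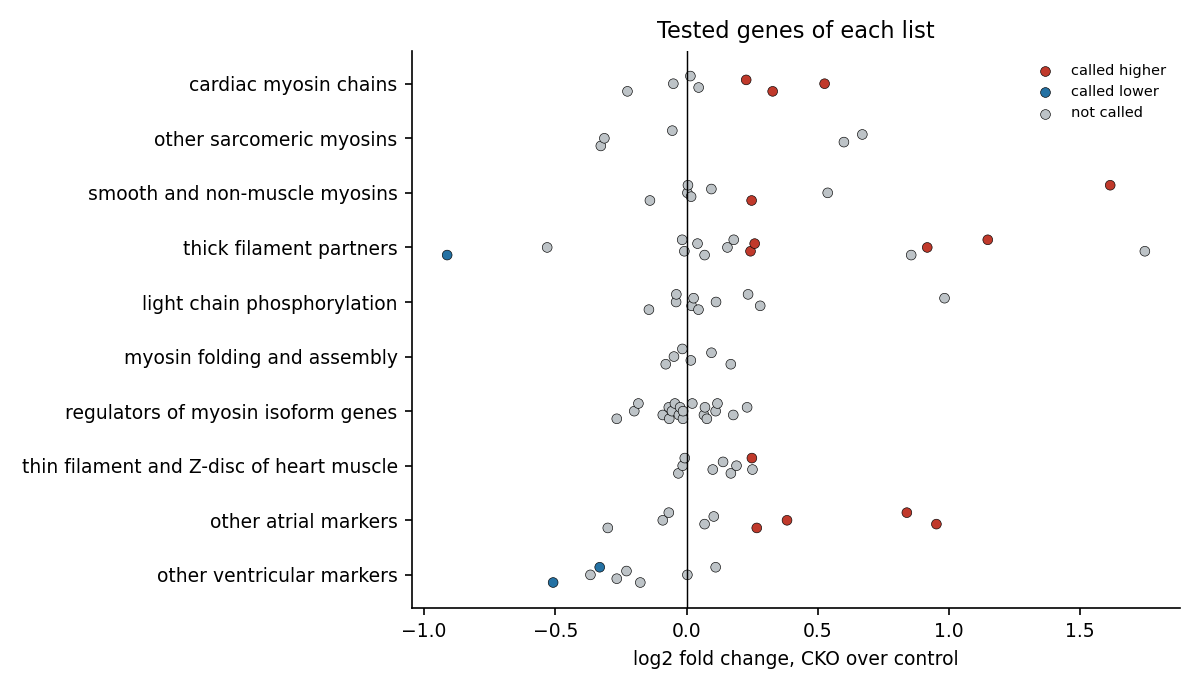
Log2 fold change, CKO over control (horizontal axis), of each tested gene of the cardiac myosin chains and of 9 other lists (rows), coloured by its call. Calls stand among the myosin chains, the smooth and non-muscle myosins, the thick filament partners, the thin filament genes and the atrial and ventricular markers, and there is none in the other 4 rows.

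Markers of other cell types were measured beside these genes, and their part in the myosin values was not tested. Of 6 smooth muscle markers 3 rose and none fell, with a summed level of 2231 to 2698 CPM in CKO and 1592 to 1623 CPM in control libraries. They were Myh11, the smooth muscle actin gene Acta2 and the calponin gene Cnn1, each called in all 6 omissions of a library. With the ribosomal RNA covariate Acta2 was called (adjusted p = 0.0353 by edgeR) and Cnn1 was not (0.308). Of 7 endothelial and endocardial markers 3 fell and none rose (summed level 1168 to 1370 CPM in CKO and 1400 to 1479 CPM in control libraries). They were Tek, Cdh5 and Kdr, which kept the call in 6, 3 and 1 of the 6 omissions and lost it with that covariate (adjusted p = 0.254, 0.425 and 0.548). Their log2 fold changes were -0.34, -0.26 and -0.26 with the covariate, against -0.36, -0.30 and -0.26 without it. No epicardial marker of 6 was called by edgeR, DESeq2 or limma-voom, with 1 at an unadjusted p under 0.05 and summed levels of 325 to 367 CPM in CKO and 343 to 367 CPM in control libraries. Of 6 markers of cushion mesenchyme and fibroblasts Postn fell, at 473 to 507 CPM in CKO and 549 to 667 CPM in control libraries. The summed level of these 6 was 3255 to 3962 CPM in CKO and 3157 to 3768 CPM in control libraries. Of 6 macrophage markers C1qa rose, at 8.89 to 11.2 CPM in CKO and 5.75 to 7.22 CPM in control libraries. The summed level of the macrophage markers was 86.7 to 98.1 CPM in CKO and 74.9 to 80.8 CPM in control libraries. Postn kept its call in 3 and C1qa in 2 of the 6 omissions, and neither was called with the covariate (adjusted p = 0.82 for Postn and 0.218 for C1qa). None of 10 red cell genes was called by edgeR, DESeq2 or limma-voom, and 0 had an unadjusted p under 0.05. The summed level of the 10 was 1159 to 1298 CPM in CKO and 1285 to 2215 CPM in control libraries. With the covariate 2 of them were called lower in CKO hearts, Hbb-y (-0.97, adjusted p = 0.000319) and Alas2 (-1.13, adjusted p = 0.0235 by edgeR). Of 8 skeletal muscle genes Tnnt3 rose and Tnni2 fell, with a summed level of 392.2 to 690.9 CPM in CKO and 323 to 332 CPM in control libraries. Most of this sum was Acta1 (322 to 567 CPM in CKO and 246 to 256 CPM in control libraries), which was not called (adjusted p = 0.177 by edgeR). The defining factor genes of skeletal muscle, Myod1 and Myf5, were at or under 0.058 CPM in each library. Myog, a later factor gene, was at 0.329 to 0.552 CPM in CKO and 0.301 to 0.828 CPM in control libraries.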

How the data were processed

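Raw counts per gene, as the labels and the deposited table name them, were used for 3 CKO and 3 control libraries of poly(A) RNA (500 ng of total RNA each). Build mm10 is named in the submitters' processing notes. Aligner, counting program, annotation and strand setting were not given in the sources used here. No label places libraries in separate animals, so p-values measure only the spread among these libraries. Part of it may be technical, but the libraries of a group were not all repeats of 1 RNA sample. Xist had 15232, 7 and 4 counts in CKO libraries 1, 2 and 3. Ddx3y had 1153, 0 and 1604 counts in control libraries 1, 2 and 3.

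Altered symbols (2017) were restored from GENCODE M21, which also gave positions and transcript lengths. Genes were filtered with filterByExpr (minimum count 10, total 15), scaled by TMM factors and tested with edgeR 4.0.16 in R 4.3.3 (robust quasi-likelihood fit, group as the only term, two-sided, adjusted over all tested genes). CPM used TMM-scaled library sizes. SE is the log2 fold change over the square root of F. Isoform ratios used exact permutation tests. Intervals cover counting error only. The pipeline was tested on simulated data.

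Members and lists were chosen with earlier results of these data known. Of each list, up to 3 genes with the smallest adjusted p and any called gene could be named, with genes overlapping a member and, for Myl7 and Myh7, the 3 genes of highest correlation. The CPM per kilobase scale and the ratios to Actc1 were added after seeing the data. The alternatives were other scaling (RLE, upper-quartile, none), DESeq2 1.42.0, limma 3.58.1 with voom, other filters and fits, a replicate block, 2 covariates (ribosomal RNA share, Y-linked expression), overlapping genes added, rows removed before scaling, a threshold of 0.01 and leaving out each library. The legacy edgeR fit and the addition of overlapping non-coding genes were chosen after seeing the data. The values of 1 listed gene are not reported here.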

Additional observations from a re-analysis of the deposited data

How the results depend on the processing

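Of the 7 genes, 3 were called higher and none lower with all 6 libraries. At an adjusted p under 0.01, 1 was called higher. When 1 library was left out, 1 to 3 were called higher and 0 to 1 lower. Without a filter on low counts, and with DESeq2, 1 was called lower (Myh7). Myl7 was called in each of the fits run at 0.05. Calls over all genes numbered 720, against 1251 with no filter, 56 with the ribosomal RNA covariate, 310 with the Y-linked covariate, 281 at an adjusted p under 0.01 and 301 to 1552 with 1 library left out. The direction of genes near 0 turned under some settings. Myl3 was at -0.0076 with no scaling factors and -0.18 with the ribosomal RNA covariate, Myh7b at -0.0702 with that covariate, -0.024 with the Y-linked covariate and -0.0084 with overlapping genes added, and Myl2 at 0.026 with the Y-linked covariate. With 1 library left out, Myl3 lay between -0.086 and 0.067 and Myh7b between -0.087 and 0.22. The cause was not tested. With the replicate number as a block, 3 of the 7 genes were called higher, none lower, and 676 genes in all; the numbers showed no pairing (correlations of same-numbered deviations from -0.002 to 0.017), and 1 of the 3 CKO libraries correlated best with its own number. For the isoform ratios the block gave p = 0.25 by an exact sign-flip test, the smallest that 3 pairs allow. Among the 7 genes the block changed no call. The ribosomal RNA covariate ended the call of Myl4 and the Y-linked covariate that of Myh6. The 3 isoform ratios kept their direction in each setting tried.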

Other observations

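The library labelled CKO 2, in which Trim28 lay within the control range, also had the highest CPM of all 6 libraries in each of the 7 counted rows that are annotated within or antisense to Myh6, Myh7 and Myh7b, leaving out the neighbour Trpc4ap. These rows were Mir208a, Mir208b, Mir499, Mhrt, Gm17428, Gm31251 and Gm49130, and they were singled out after their values were seen. Mir208b had 35 counts there and 6 to 25 in the other libraries. This library also held the highest Myh7b level (118 CPM) and, of the CKO group, the highest Myh7 level (4908 CPM). Of that group it had the lowest levels of Myh6 (4756 CPM), Myl7 (1059 CPM), Myl4 (1927 CPM), Myl2 (2518 CPM) and Myl3 (1583 CPM). Among controls, library 3 had the highest Myh6 (4286 CPM), the lowest Myh7 (4708 CPM), Myl2 (2451 CPM) and Myl3 (1437 CPM), and the highest Trim28 (443 CPM).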
